A study of Mus musculus with 130 samples.

Results

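Aass and Aldh7a1 are consecutive genes of lysine degradation, and they are described here as 2 of the 52550 genes in the RNA tables of a study on mouse embryonic stem cells. Aass was selected on its RNA level in the same libraries, because its count lay far above the wild type in the mutant lines, and Aldh7a1 was added because its enzyme takes the next step. The values that chose Aass are therefore a description and carry no test. Both genes, ENSMUSG00000029695.13 and ENSMUSG00000053644.13, had counts in all 10 RNA libraries.

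Lysine is broken down in mitochondria by the saccharopine route. AASS is a bifunctional enzyme that joins lysine to 2-oxoglutarate as saccharopine and then splits saccharopine into glutamate and aminoadipic semialdehyde. ALDH7A1, also called antiquitin, oxidises that semialdehyde to aminoadipate, and later enzymes carry the carbon to acetyl-CoA. The route is best known from liver and kidney, and in humans loss of AASS gives hyperlysinaemia and loss of ALDH7A1 gives pyridoxine-dependent epilepsy.

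The study compared embryonic stem cell lines that lack histone H3 lysine methyltransferases or DNA methyltransferases, and wild-type cells given an inhibitor of G9a. On the C57BL/6xCBA background there were G9a-/-;GLP-/- cells (clone 248-6, called G9a/GLP DKO), G9a-/- cells with a transgene labelled Y1120V and Y1207F (clone G7, called G9a CM) and wild-type TT2 cells (WT TT2). On the 129S4/SvJae background there were Dnmt 3a/3b-/- cells (Dnmt3a/3b DKO), Dnmt1/3a/3b-/- cells (Dnmt1/3a/3b TKO) and wild-type J1 cells (WT J1). The inhibitor series was wild type on C57BL/6xCBA and held a control library, with DMSO as the control per the protocol, and cells given UNC0638, an inhibitor of G9a, for libraries labelled day 2, day 4 and day 14. Titles give the dose as 250 nM whereas the protocol text has 250 uM, and the labels do not say whether treatment ran throughout. G9a is encoded by Ehmt2 and GLP by Ehmt1. All cells were grown with serum and LIF on gelatin.

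Each group had 1 Smart-seq2 library with a total of 11436808 to 25609600 estimated counts, so no comparison has a replicate check and no p-value is given. The markers of embryonic stem cells were at 1 CPM (the count scaled to library size) or more for 10 of 10 genes in every library. This checks detection alone, and changes in their levels are given with the other markers below. Ehmt1 had 7.95 CPM in G9a/GLP DKO, against 38.3 CPM in WT TT2. Ehmt2 had 17.9 CPM in the library labelled G9a/GLP DKO and 14.6 CPM in WT TT2, so its level does not check that label, since counts over a whole gene can come from a disrupted transcript. Dnmt3b had 3.05 CPM in Dnmt3a/3b DKO and 2.68 CPM in Dnmt1/3a/3b TKO, against 26.9 CPM in WT J1, and Dnmt1 had 6.35 CPM in Dnmt1/3a/3b TKO, against 46.6 CPM in WT J1. Dnmt3a had 4.30 CPM in Dnmt3a/3b DKO and 4.76 CPM in Dnmt1/3a/3b TKO, against 17.4 CPM in WT J1, but in TPM, which divides by transcript length, it had 5.07 and 4.49, against 4.66.

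Aass RNA was low in every wild-type library and higher in all 4 mutant lines. It reached 114.3 CPM in G9a/GLP DKO and 56.1 CPM in G9a CM, against 3.81 CPM in WT TT2. It reached 310.4 CPM in Dnmt3a/3b DKO and 90.4 CPM in Dnmt1/3a/3b TKO, against 2.08 CPM in WT J1. In the inhibitor series it had 4.33 CPM in the control, 9.31 CPM on day 2, 4.69 CPM on day 4 and 6.52 CPM on day 14. The lowest mutant value, that of G9a CM, lay above the highest value of the other 6 libraries, that of UNC0638 day 2. These levels rest on 1452 counts in G9a/GLP DKO and 953 in G9a CM, against 97 in WT TT2, and on 5195 counts in Dnmt3a/3b DKO and 1651 counts in Dnmt1/3a/3b TKO, against 31 in WT J1. In a bulk library, more cells with Aass RNA and more Aass RNA per cell cannot be told apart.

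**Figure D1:**
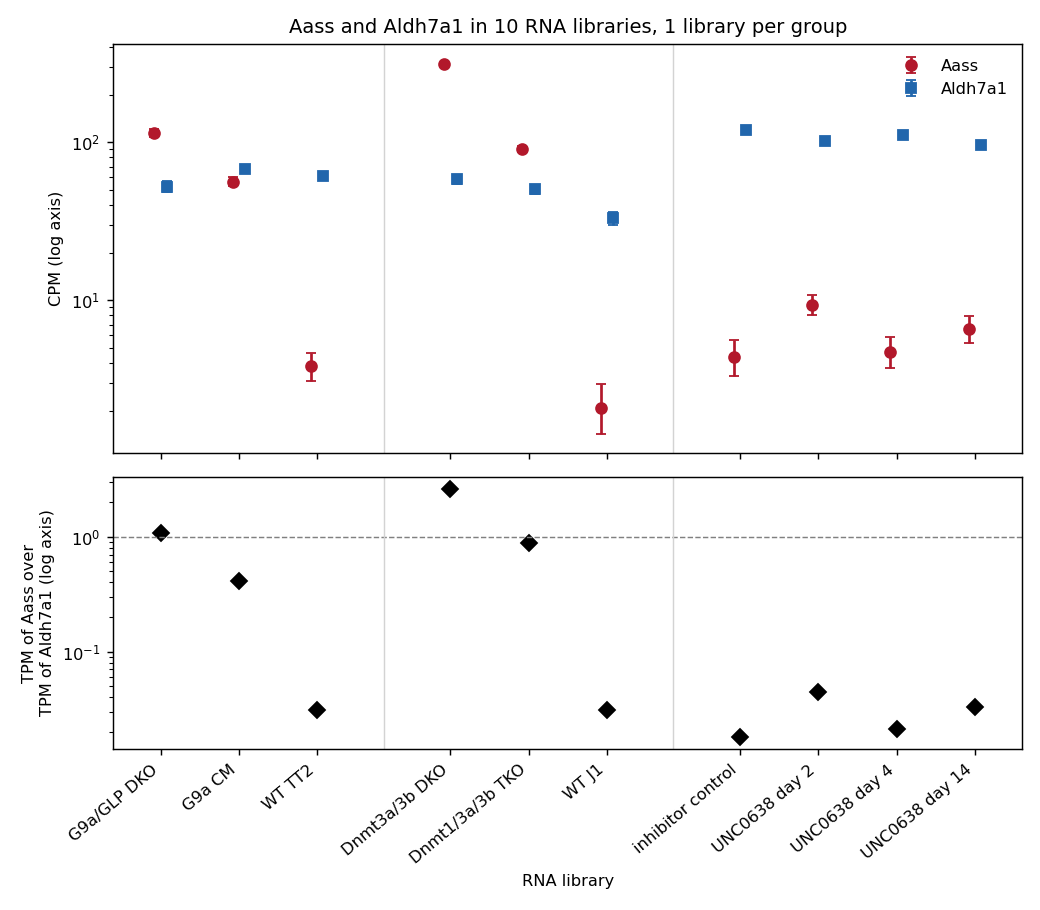
Upper panel: CPM of Aass (circles) and Aldh7a1 (squares) in each of the 10 libraries on a log axis, with bars for the exact 95% Poisson counting interval. Lower panel: TPM of Aass divided by TPM of Aldh7a1. Aass stands between 56.1 and 310.4 CPM in the 4 mutant lines and between 2.08 and 9.31 CPM in the other 6 libraries, while Aldh7a1 stays between 32.9 and 119.0 CPM.

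Per transcript length the picture was the same. Aass had 36.3 TPM in G9a/GLP DKO and 17.0 TPM in G9a CM, against 1.06 TPM in WT TT2. It had 86.9 TPM in Dnmt3a/3b DKO and 24.7 TPM in Dnmt1/3a/3b TKO, against 0.44 TPM in WT J1. Among genes with any TPM in a library, Aass stood at percentile 86.0 in G9a/GLP DKO, 79.1 in G9a CM, 92.4 in Dnmt3a/3b DKO and percentile 83.8 in Dnmt1/3a/3b TKO, against 48.5 in WT TT2 and 37.1 in WT J1. Aass thus lay in the lower or middle part of the detected genes in wild-type cells and in the upper part in the mutant lines. In the inhibitor series the control had 1.51 TPM, and days 2, 4 and 14 had 3.94, 1.64 and 2.43 TPM, at percentiles from 42.1 to 54.7.

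The mean transcript length that the quantifier assigned to Aass was 3701 bases in 9 libraries and 3696 bases in Dnmt3a/3b DKO, although the tables list 4 transcripts of the gene. The higher count therefore came with almost the same transcript length in every library. The quantifier's posterior standard deviation of the Aass count was 0 in all 10 libraries, so its sampling of read assignments left the count unchanged. Its posterior mean, a separate estimate that was higher than the printed TPM in wild-type libraries and lower in mutant ones, was 79.5 TPM (95% credibility interval 77.3 to 81.8) in Dnmt3a/3b DKO, against 0.80 TPM (0.408 to 1.27) in WT J1. In G9a/GLP DKO it was 32.2 TPM (30.4 to 34.0), against 1.44 TPM (1.01 to 1.95) in WT TT2. The ratio of posterior means was 99.4 in Dnmt3a/3b DKO over WT J1 and 22.3 in G9a/GLP DKO over WT TT2, where the ratio of TPM was 197.5 and 34.3.

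Aass lies on chromosome 6 from 23072173 to 23132986 (GRCm38.p6, RefSeq gene span) on the minus strand. The 250 bases before its start, at chr6:23132987-23133236, are shown for their CG dinucleotides, the base pair step that DNA methyltransferases act on. Bases after the start were not searched. The sequence is from RefSeq, printed along the minus strand, with each CG in capitals.
Aass upstream bases: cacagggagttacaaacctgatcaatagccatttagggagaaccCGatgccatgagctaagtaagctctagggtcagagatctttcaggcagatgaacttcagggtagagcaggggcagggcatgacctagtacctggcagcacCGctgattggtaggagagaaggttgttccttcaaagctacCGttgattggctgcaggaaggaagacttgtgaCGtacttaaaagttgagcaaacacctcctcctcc
The window holds 4 CG dinucleotides, at 206, 106, 66 and 34 bases before the start, and its GC content is 50%. The motif searched was CG, which reads the same on both strands. Over 32851 promoter windows of the same length the median was 6, with fewer CG in 37.8% of windows and more in 55.6%, and 92.1% of windows held at least 1. The observed number of CG was 0.26 times that given by the window's C and G content. A match is a description of the letters, and methylation of these bases was not analysed here.

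A gene was called higher or lower when its log2(CPM + 1) differed by at least 1, it had at least 1 CPM in 1 of the libraries, and the exact 95% binomial counting interval of its CPM ratio left out 1. The interval covers counting error alone, and Smart-seq2 reads carry no molecular identifiers, so amplified copies count as reads. In G9a/GLP DKO, 9.77% of 14027 measured genes were called higher and 7.09% lower than in WT TT2. In G9a CM, 5.4% of 13504 were higher and 5.07% lower. Both comparisons share the WT TT2 library.

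Aass was 29.95-fold higher in G9a/GLP DKO than in WT TT2 (counting interval 24.4 to 37.2), with 24 measured genes showing a larger difference. It was 14.7-fold higher in G9a CM than in WT TT2 (interval 11.9 to 18.3), with 15 genes above it. Between the mutants, Aass was 2.04-fold higher in G9a/GLP DKO than in G9a CM (interval 1.87 to 2.21) and only just passed the call, with a log2(CPM + 1) difference of 1.01. In that comparison 6.67% of 13869 genes were called higher.

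Aass was also higher in both Dnmt mutant lines, of which Dnmt3a/3b DKO keeps Dnmt1. In Dnmt3a/3b DKO, 9.23% of 13743 measured genes were called higher and 9.89% lower than in WT J1, and in Dnmt1/3a/3b TKO 11% of 13924 were higher and 10.6% lower. Aass was 149.2-fold higher in Dnmt3a/3b DKO than in the WT J1 library (interval 105.0 to 219.8), and 0 measured genes had a larger log2(CPM + 1) difference. It was 43.5-fold higher in Dnmt1/3a/3b TKO than in the WT J1 library (interval 30.5 to 64.2), with 10 genes above it. Both comparisons share the WT J1 library, whose 31 Aass counts set the width of both intervals.

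The line that also lacks Dnmt1 held less Aass RNA than the line that keeps it. Aass was called lower in Dnmt1/3a/3b TKO than in Dnmt3a/3b DKO, with a ratio of 0.291 (interval 0.275 to 0.308), which is 3.43-fold lower. In that comparison 1.35% of 13461 measured genes were called lower, and 10 measured genes had a more negative difference than Aass. With 1 library of each, genotype and line cannot be told apart.

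**Figure D2:**
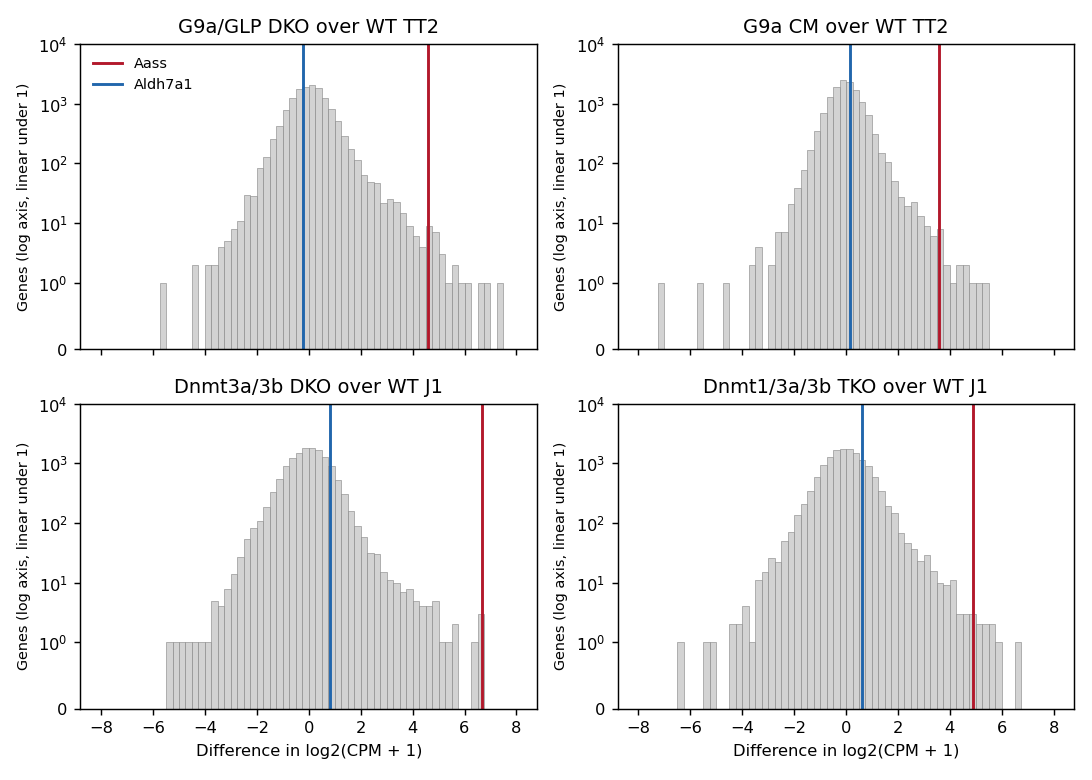
Number of measured genes (log axis, linear under 1) by their difference in log2(CPM + 1), mutant minus wild type, in 4 comparisons. The red line marks Aass, at 4.58, 3.57, 6.66 and 4.89 in reading order, and the blue line marks Aldh7a1, which lies between -0.22 and 0.81.

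Of 12493 genes measured in all 4 mutant comparisons, 155 (1.24%) were called higher in every one, and Aass was among them. Ranked by the smallest of its 4 differences, Aass stood at 3.57, and the 1 gene above it was Magea8, a member of the Mage family of germline genes, named here after its values were seen. These ranks repeat the values on which Aass was selected, and the pairs of comparisons share their wild-type libraries.

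Under UNC0638 the ratios of Aass to the inhibitor control were smaller than its ratios to wild type in the 4 mutant lines. The background was 3.12% of 13294 measured genes called higher and 1.84% lower on day 2, 1.95% of 13112 higher and 0.671% lower on day 4, and 2.92% of 13269 higher and 0.535% lower on day 14. Aass was not called on any day. Its ratio to the control was 2.15 on day 2 (interval 1.59 to 2.93), 1.08 on day 4 (interval 0.763 to 1.54) and 1.51 on day 14 (interval 1.08 to 2.11). On day 2 the log2(CPM + 1) difference was 0.95, just under the minimum of 1, and it passed with scaling by total count (ratio 2.51) or a pseudocount of 0.5 CPM. On that day 480 measured genes had a larger difference, and the ratio in TPM was 2.61, which was not called. All 3 days share the control library, and the ratios have no order over time: the highest was on day 2. Of the 155 genes higher in all 4 mutant lines, 68 were called higher on at least 1 day and 38 on all 3 days, and Aass was in neither set. The shares of all measured genes called on at least 1 day or on all 3 days were not computed. Nothing is therefore read from these 2 counts.

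The inhibitor series stood apart from the untreated TT2 library, with 25.2% of 13667 measured genes called higher and 22% lower in the inhibitor control than in WT TT2. Aass differed little between these wild-type libraries, with a ratio of 1.14 (interval 0.808 to 1.59). Against WT TT2 in place of its own control, Aass on day 2 was 2.44-fold higher and was called. In WT J1, Aass was not called against WT TT2, with a ratio of 0.545 (interval 0.352 to 0.825), where 11% of 13735 genes were called lower. With WT TT2 in place of WT J1, Aass was 81.4-fold higher in Dnmt3a/3b DKO and 23.7-fold higher in Dnmt1/3a/3b TKO.

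Aldh7a1 RNA was detected in every library and was called in 0 of the 7 comparisons with a control, with ratios from 0.809 to 1.77. It had 52.3 CPM in G9a/GLP DKO and 67.3 CPM in G9a CM, against 61.0 CPM in WT TT2. It had 58.3 CPM in Dnmt3a/3b DKO and 50.3 CPM in Dnmt1/3a/3b TKO, against 32.9 CPM in WT J1. In the inhibitor series it had 119.0 CPM in the control and 102.1, 110.8 and 96.3 CPM on days 2, 4 and 14. The highest values were thus those of the whole inhibitor series, control included, and the lowest was that of WT J1. Over the 10 libraries Aldh7a1 spanned 3.62-fold in CPM, against 149.2-fold for Aass.

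The Aldh7a1 ratio was 0.857 in G9a/GLP DKO over WT TT2 (interval 0.781 to 0.939) and 1.10 in G9a CM over WT TT2 (interval 1.02 to 1.19). It was 1.77 in Dnmt3a/3b DKO over WT J1 (interval 1.59 to 1.98) and 1.53 in Dnmt1/3a/3b TKO over WT J1 (interval 1.37 to 1.71). These ratios to WT J1 were larger in TPM, at 2.37 for Dnmt3a/3b DKO and 1.98 for Dnmt1/3a/3b TKO, and with TPM the Dnmt3a/3b DKO value passed the call. With WT TT2 in place of WT J1 they were 0.955 for Dnmt3a/3b DKO and 0.824 for Dnmt1/3a/3b TKO, below 1. Against the inhibitor control, Aldh7a1 had ratios of 0.858 on day 2 (1.06 in TPM), 0.931 on day 4 and 0.809 on day 14. Its inhibitor control over WT TT2 ratio was 1.95 (interval 1.82 to 2.09), larger than any of its 7 ratios to a control.

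**Figure D3:**
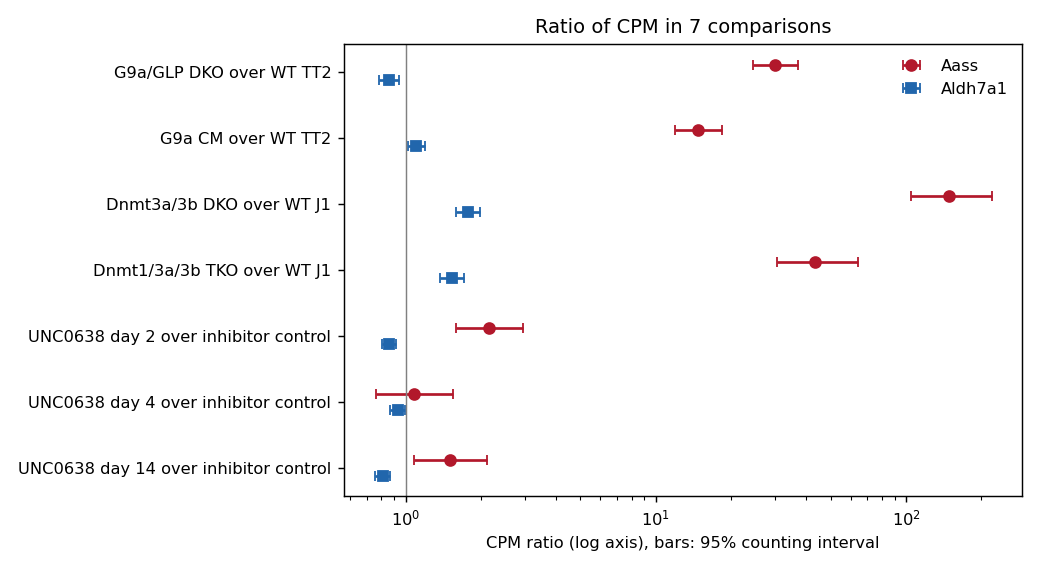
CPM ratio of Aass (circles) and Aldh7a1 (squares) in 7 comparisons on a log axis, with bars for the exact 95% counting interval and a line at 1. Aass lies between 14.7 and 149.2 in the 4 mutant comparisons and between 1.08 and 2.15 under UNC0638, and Aldh7a1 between 0.809 and 1.77 in all 7.

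Aldh7a1 lies on chromosome 18 from 56524722 to 56572991 (GRCm38.p6) and its span shares 10423 bases with that of Phax, which encodes an adaptor for nuclear export of small RNAs. The tables list 9 Aldh7a1 transcripts, and the mean length assigned ran from 1902 to 1967 bases. The sources used here do not give the strand setting of the counting, so reads from the shared stretch could have gone to either gene. The posterior standard deviation of the Aldh7a1 count was at most 1.14. Phax had 122.6 CPM in G9a/GLP DKO, against 263.4 CPM in WT TT2, and was called lower there, while Aldh7a1 was not called. WT TT2 had the highest Phax level of the 10 libraries, against 104.7 CPM in the inhibitor control and 113.0 CPM in WT J1. Phax was called in no other comparison with a control. How reads of the shared stretch were divided was not tested.

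The balance of the first and next steps, taken per transcript length, changed with Aass. The TPM of Aass over the TPM of Aldh7a1 was 1.07 in G9a/GLP DKO and 0.409 in G9a CM, against 0.0311 in WT TT2. It was 2.60 in Dnmt3a/3b DKO and lay at 0.884 in Dnmt1/3a/3b TKO, against 0.0312 in WT J1. In the inhibitor series it was 0.0180 in the control, 0.0445 on day 2, 0.0209 on day 4 and 0.0327 on day 14. Aass RNA was thus as abundant as Aldh7a1 RNA or more so in G9a/GLP DKO and Dnmt3a/3b DKO, and far less abundant in all 6 wild-type libraries, those given UNC0638 included.

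Downstream of ALDH7A1 the saccharopine route changed in few genes. The list holds 15 genes with Aass and Aldh7a1. Without them, 0 of 12 measured genes were called higher and 2 lower in G9a/GLP DKO, 0 of 12 higher and 1 lower in G9a CM, 0 of 12 higher and 1 lower in Dnmt3a/3b DKO, and 1 of 13 higher and 2 lower in Dnmt1/3a/3b TKO. Under UNC0638, 0 of 11 were called in either direction on each of the 3 days. Their median log2(CPM + 1) difference was -0.18 in G9a/GLP DKO, -0.03 in G9a CM, -0.26 in Dnmt3a/3b DKO and 0.00 for Dnmt1/3a/3b TKO. Over all measured genes the medians of these comparisons were 0.04, -0.03, 0.01 and -0.02. Set against the background shares above, counts of 0 to 2 genes in so short a list are not a result about the list.

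Aadat, which encodes the aminotransferase that follows ALDH7A1, was close to undetected in every library, and its highest level was 1.05 TPM, in Dnmt1/3a/3b TKO. Dhtkd1 and Dlst, subunits of the 2-oxoadipate dehydrogenase complex, and Gcdh, the glutaryl-CoA dehydrogenase, were not called in any of the 7 comparisons with a control. Gcdh had 30.3 CPM in G9a/GLP DKO and 29.8 CPM in G9a CM, against 28.4 CPM in WT TT2, and 29.2 CPM in Dnmt3a/3b DKO and 33.2 CPM in Dnmt1/3a/3b TKO, against 18.9 CPM in WT J1. Neither Etfa, Etfb nor Etfdh, which pass electrons from that dehydrogenase to the respiratory chain, was called. The enzyme steps next to ALDH7A1 were therefore either at the edge of detection or without a call.

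Among the other genes of the route, Acat1, a mitochondrial acetyl-CoA acetyltransferase, was lower in both G9a lines. It had 27.9 CPM in G9a/GLP DKO and 17.9 CPM in G9a CM, against 65.7 CPM in WT TT2, which is 2.35-fold (interval 2.10 to 2.64) and 3.67-fold (interval 3.24 to 4.16) lower. Sugct, which makes glutaryl-CoA from glutarate, was lower at 0.956 CPM in Dnmt3a/3b DKO and at 1.97 CPM in Dnmt1/3a/3b TKO, against 8.99 CPM in WT J1. It was also lower in G9a/GLP DKO at 0.865 CPM, against 3.07 CPM in WT TT2, a call lost with a pseudocount of 5 CPM and with a 5 CPM filter. Ogdh, the 2-oxoglutarate dehydrogenase subunit, was 2.08-fold higher (interval 1.83 to 2.37) and Echs1, the short-chain enoyl-CoA hydratase, 2.09-fold lower (interval 1.96 to 2.22), both in Dnmt1/3a/3b TKO relative to WT J1. Echs1 was not called with total count or TPM, and Ogdh was not called with DESeq2 size factors or a pseudocount of 5 CPM.

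**Figure D4:**
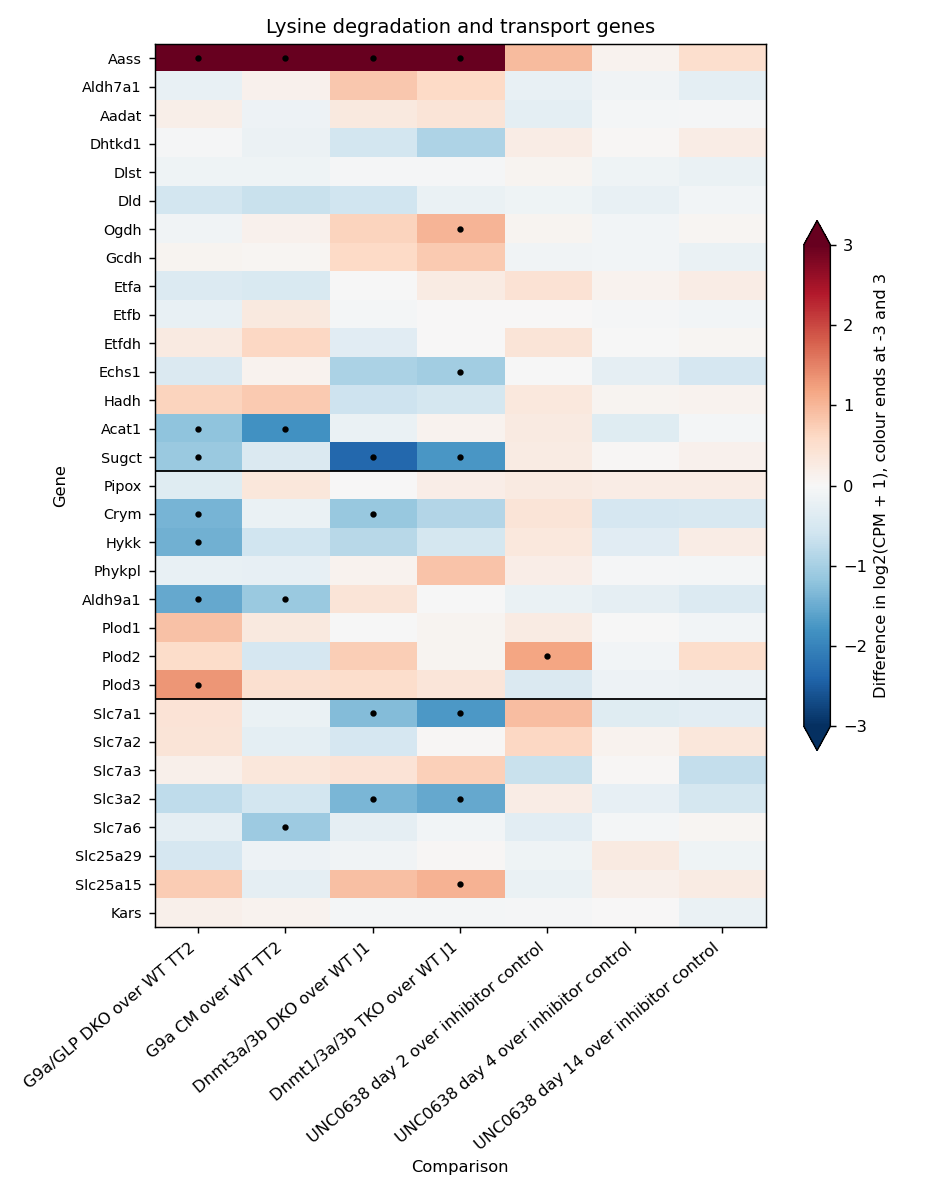
Difference in log2(CPM + 1) for 31 genes of the saccharopine route (top), the pipecolate, hydroxylysine and trimethyllysine branches (middle) and lysine transport with lysyl-tRNA synthesis (bottom) in 7 comparisons. Dots mark called genes, red is higher and blue lower, and the Aass row is the one past 3 in all 4 mutant comparisons.

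In the pipecolate, hydroxylysine and trimethyllysine branches, 8 genes were measured of 10 listed. In G9a/GLP DKO 1 was called higher and 3 lower, in G9a CM 0 and 1, in Dnmt3a/3b DKO 0 and 1, and in Dnmt1/3a/3b TKO 0 and 0, beside 9.77% of all measured genes higher and 7.09% lower in G9a/GLP DKO, and 5.07% lower in G9a CM and 9.89% in Dnmt3a/3b DKO. Counts of 0 to 3 in so short a list are not a result about it. Aldh9a1, an aldehyde dehydrogenase of the carnitine route, had 50.1 CPM in G9a/GLP DKO and 67.8 CPM in G9a CM, against 147.6 CPM in WT TT2, which is 2.94-fold and 2.18-fold lower. Crym, a ketimine reductase of the pipecolate route, was lower in G9a/GLP DKO at 2.28 CPM, against 7.59 CPM in WT TT2, and in Dnmt3a/3b DKO at 1.37 CPM, against 4.23 CPM in WT J1. Hykk, the hydroxylysine kinase, was lower in G9a/GLP DKO at 1.89 CPM, against 6.88 CPM in WT TT2. Pipox, which oxidises pipecolate and enters the same route at the semialdehyde, had 64.8 CPM in G9a/GLP DKO and 105.2 CPM in G9a CM, against 83.3 CPM in WT TT2, and was not called in any comparison. The lysyl hydroxylase Plod3 was higher in G9a/GLP DKO at 10.5 CPM, against 3.58 CPM in WT TT2. The lysyl hydroxylase Plod2 was the 1 gene of the list called under UNC0638, with 41.4 CPM on day 2, against 17.7 CPM in the control. The median difference of the list was -0.29 in G9a/GLP DKO, -0.23 in G9a CM, 0.06 in Dnmt3a/3b DKO, and 0.08 for Dnmt1/3a/3b TKO. With TPM, Hykk in G9a/GLP DKO, Aldh9a1 in G9a CM and Crym in Dnmt3a/3b DKO were not called, and with a pseudocount of 5 CPM neither Crym, Hykk nor Plod3 was called in G9a/GLP DKO.

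Of the transport and lysyl-tRNA list, 7 genes were measured in each mutant comparison, with 0 called in G9a/GLP DKO, 1 lower in G9a CM, 2 lower in Dnmt3a/3b DKO, and 1 higher and 2 lower in Dnmt1/3a/3b TKO. The shares of all measured genes called lower were 5.07% in G9a CM, 9.89% in Dnmt3a/3b DKO, and 10.6% for Dnmt1/3a/3b TKO, so counts of 0 to 2 in so short a list are not a result about it. Of 8 measured under UNC0638, 0 were called on each day. Slc7a1, the cationic amino acid transporter that brings in lysine and arginine, had 23.8 CPM in Dnmt3a/3b DKO and 17.6 CPM in Dnmt1/3a/3b TKO, against 60.0 CPM in WT J1, which is 2.52-fold (interval 2.23 to 2.84) and 3.41-fold (interval 3.00 to 3.89) lower. Slc3a2, the heavy chain of several amino acid exchangers, was 2.58-fold and 2.91-fold lower in the same mutants. WT TT2 itself had 19.3 CPM of Slc7a1, close to these mutants. Slc7a6, a light chain that exchanges cationic amino acids, was 2.17-fold lower in G9a CM than in WT TT2. Slc25a15, the mitochondrial ornithine carrier, which also carries lysine, was 2.09-fold higher in Dnmt1/3a/3b TKO relative to WT J1. The median difference of the list was 0.15 in G9a/GLP DKO, -0.27 in G9a CM, -0.26 in Dnmt3a/3b DKO, and -0.05 for Dnmt1/3a/3b TKO. With TPM neither Slc7a6 in G9a CM nor Slc7a1 and Slc3a2 in Dnmt3a/3b DKO was called, at ratios of 0.567, 0.551 and 0.521, and with a pseudocount of 5 CPM Slc7a6 and Slc25a15 were not called.

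Of 16 measured genes of enzymes that break down other amino acids, 0 were called higher and 3 lower in G9a/GLP DKO, 1 higher and 0 lower in G9a CM, 2 higher and 4 lower in Dnmt3a/3b DKO, 1 higher and 4 lower in Dnmt1/3a/3b TKO, and 0 on each day of UNC0638. All measured genes had 7.09% lower in G9a/GLP DKO, 9.89% in Dnmt3a/3b DKO, and 10.6% for Dnmt1/3a/3b TKO, and nothing is read from list counts this small. Fah, the last enzyme of tyrosine breakdown, had 2.68 CPM in G9a/GLP DKO, against 11.8 CPM in WT TT2, and 14.6 CPM in Dnmt3a/3b DKO and 8.21 CPM in Dnmt1/3a/3b TKO, against 30.5 CPM in WT J1. Cth, which makes cysteine from cystathionine, was 2.98-fold lower in Dnmt3a/3b DKO and 3.30-fold lower in Dnmt1/3a/3b TKO relative to WT J1. Oat, the ornithine aminotransferase, was 2.81-fold lower in G9a/GLP DKO relative to WT TT2. The median difference of the list was -0.37 in G9a/GLP DKO, 0.07 in G9a CM, -0.22 in Dnmt3a/3b DKO, and -0.12 for Dnmt1/3a/3b TKO. In Dnmt3a/3b DKO Fah was not called with TPM (ratio 0.636) or total count (ratio 0.544).

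Among other aldehyde dehydrogenases, relatives of Aldh7a1, 0 of 11 measured genes were called higher and 2 lower in G9a/GLP DKO, 1 of 12 higher and 1 lower in G9a CM, 1 of 13 higher and 2 lower in Dnmt3a/3b DKO, and 1 of 12 higher and 3 lower in Dnmt1/3a/3b TKO. Beside 7.09%, 5.07%, 9.89% and 10.6% of all measured genes called lower in these comparisons, counts of 0 to 3 in so short a list are not a result about it. Aldh18a1, which starts proline synthesis, was 2.63-fold lower in G9a/GLP DKO than in WT TT2 and 3.79-fold lower in Dnmt1/3a/3b TKO relative to WT J1. Aldh1l2, a mitochondrial folate enzyme, was 2.77-fold lower in Dnmt3a/3b DKO and 5.10-fold lower in Dnmt1/3a/3b TKO relative to WT J1. Aldh3a1, an enzyme that clears aldehydes in cornea, was 4.52-fold higher on day 2 and 3.79-fold higher on day 4 than in the inhibitor control, the 1 gene of 13 measured that was called on those days. With a pseudocount of 5 CPM neither Aldh1l2 nor Aldh3a1 was called. Aldh1l2 was also not called with TPM in either Dnmt mutant (ratio 0.432 in Dnmt3a/3b DKO, 0.284 in Dnmt1/3a/3b TKO) or with total count in Dnmt3a/3b DKO (ratio 0.411). The median difference of the list was -0.16 in G9a/GLP DKO, 0.33 in G9a CM, 0.17 in Dnmt3a/3b DKO, and 0.07 for Dnmt1/3a/3b TKO.

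Of the genes measured beside Aass, none was called higher in all 4 mutant lines, but all were at low levels. Of 16 RefSeq genes within 500 kb, 7 were found by name in the tables and 3 reached 1 CPM in any library. Genes not matched by name were not analysed. Ptprz1, a receptor tyrosine phosphatase gene 19.3 kb away, had 3.46 CPM in G9a/GLP DKO and 0.766 CPM in G9a CM, against 0.747 CPM in WT TT2, and 1.37 CPM in Dnmt3a/3b DKO and 1.75 CPM in Dnmt1/3a/3b TKO, against 0.738 CPM in WT J1. Ptprz1 was called higher in G9a/GLP DKO alone. Its ratio to WT J1, which had 11 counts, was 1.86 in Dnmt3a/3b DKO (interval 0.872 to 4.23) and 2.37 in Dnmt1/3a/3b TKO (interval 1.17 to 5.22). At levels this low the added 1 CPM shrinks the difference used for the call. Gm5989, a pseudogene 25.0 kb away, had 5.51 CPM in G9a/GLP DKO and 0.295 CPM in G9a CM, against 0 counts in WT TT2, and 0 counts in all 3 libraries of the 129S4/SvJae background. In the inhibitor series it had 0 counts in the control, 0.662 CPM on day 2, 1.72 CPM on day 4 and 13.0 CPM on day 14. With each library at 0 set to the floor of 3 counts, the Gm5989 ratio was 46.7 in G9a/GLP DKO over WT TT2 and 59.2 on day 14 over the control. The lower limits of the counting intervals of these ratios were 37.0 and 47.7. As a pseudogene it may share reads with its parent gene, and the posterior standard deviation of its day 14 count was 1.76 of 202 counts. Cadps2, a gene of vesicle release 129.8 kb away, was not called in any of the 7 comparisons.

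Of 18 RefSeq genes within 500 kb of Aldh7a1, 7 were found by name in the tables and 3 reached 1 CPM. Lmnb1, the lamin B1 gene, was not called in any of the 7 comparisons. Its level was not even over the libraries, with 14.1 CPM in WT TT2 and 257.3 CPM in the inhibitor control. C330018D20Rik, 382.8 kb away, had 32.3 CPM in Dnmt3a/3b DKO and 35.3 CPM in Dnmt1/3a/3b TKO, against 109.3 CPM in WT J1, and was called lower in both. WT TT2 itself had 37.8 CPM of it, close to these mutants, and the inhibitor control had 8.23 CPM.

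The genes whose pattern was most like that of Aass were found by Pearson's r of log2(CPM + 1) over the 10 libraries, among 8566 genes with at least 10 CPM in 1 or more libraries. They were Zfp600 (r = 0.96), Nfatc2ip (r = 0.95), Fgd4 (r = 0.95), Rex2 (r = 0.95) and Ipo11 (r = 0.94). Zfp600, a zinc finger gene, had 33.3 CPM in G9a/GLP DKO and 20.0 CPM in G9a CM, against 10.3 CPM in WT TT2, and 41.8 CPM in Dnmt3a/3b DKO and 40.5 CPM in Dnmt1/3a/3b TKO, against 6.31 CPM in WT J1. All 5 were highest in mutant lines, as Aass was, over a smaller range. The r of Aldh7a1 with Aass was -0.29, at place 5446. The genes most like Aldh7a1 were Cct7, Relb and Usp39 (r = 0.99 each) and Nsun5 and Abcf1 (r = 0.98 each), which were highest in the inhibitor series and lowest in WT J1. The 10 points share wild-type lines, backgrounds and series, so r is a description.

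Markers of tissues that use the saccharopine route were low in all 10 libraries, with higher sums in the 4 mutant lines than in the others. The 5 hepatocyte markers analysed summed to 1.77 to 2.38 TPM in the 4 mutant lines and to 0.56 to 1.44 TPM in the other 6 libraries, and Serpina1a was at 0 in all 10. The 4 kidney markers (Slc34a1, Lrp2, Cubn and Umod) summed to 1.99 to 3.87 TPM in the mutant lines and to 0.28 to 0.77 TPM in the others, and Slc34a1 was at 0 in all 10. In each mutant comparison 2 of the 4 were measured, and 2 were called higher in G9a/GLP DKO, 2 in G9a CM, 1 in Dnmt3a/3b DKO and 2 counted in Dnmt1/3a/3b TKO, the lines where Aass was higher, and 1 was called higher on day 14 of UNC0638. Of the hepatocyte markers 1 of 2 measured was called higher in G9a/GLP DKO, and 0 in the other mutant lines, where 0 to 3 were measured. Of the trophoblast markers, 2 of 3 measured were called higher in G9a/GLP DKO, 1 of 3 in G9a CM, 2 of 3 in Dnmt3a/3b DKO and 3 of 4 in Dnmt1/3a/3b TKO. For neural progenitor markers it was 0 of 3 in each G9a line and 2 of 4 in each Dnmt mutant. Counts in marker lists this short are not a result about them. The 6 trophoblast markers summed to 6.19 to 16.0 TPM in the mutant lines, against 2.76 TPM in WT TT2 and 1.26 TPM in WT J1, and in the inhibitor series, where Aass was low, to 11.04 TPM in the control and 20.4, 12.7 and 14.5 TPM on days 2, 4 and 14. The 6 primitive endoderm markers summed to 1.04 TPM in G9a/GLP DKO and 1.80 TPM in G9a CM, against 1.36 TPM in WT TT2, and to 4.18 TPM in Dnmt3a/3b DKO and 5.34 TPM in Dnmt1/3a/3b TKO, against 4.81 TPM in WT J1. In the inhibitor series they summed to 6.13 TPM in the control and 5.88, 5.46 and 11.4 TPM on days 2, 4 and 14. On day 14, 3 of 5 measured were called higher, beside 2.92% of all measured genes. In the inhibitor control over WT TT2, 3 of 3 were called higher, beside 25.2%. In Dnmt3a/3b DKO, in Dnmt1/3a/3b TKO and on day 2, 1 of 4 measured was called lower, beside 9.89%, 10.6% and 1.84%. Nothing is read from counts this small. The 7 fibroblast markers summed to 2.16 to 5.92 TPM over all 10 libraries. Of 2 measured, 1 was called higher and 1 lower in G9a/GLP DKO, and 1 higher and 0 lower in G9a CM. In each Dnmt mutant 1 was measured and 0 were called. The 4 neural progenitor markers summed to 24.7 to 32.1 TPM in the mutant lines, against 19.9 TPM in WT TT2 and 6.15 TPM in WT J1, and in the inhibitor series to 127.8 TPM in the control and 113.7, 139.4 and 140.6 TPM on days 2, 4 and 14. The part of such cells in the Aass level was not tested.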

How the data were processed

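RNA from 10 libraries of mouse embryonic stem cells, 1 per group, was analysed; 120 samples of other assays were not used here. The authors deposited per gene the expected count and TPM that RSEM estimated, with its posterior means and credibility intervals on other scales, per the file headers. Alignment used STAR 2.5.3a on GRCm38 (mm10), per the submitters' processing notes. The annotation release and strand setting are not given in the sources used here.

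These estimated counts, made whole by rounding, were turned into CPM with TMM factors (edgeR 4.0.16) over genes at 1 CPM or more in any library. Factors ran from 0.908 to 1.11. Ratios carry exact 95% Clopper-Pearson counting intervals, counts of 0 being set to a floor of 3 counts for a ratio. With 1 library per group there is no spread and no test. Gene names came from a table that matched 93.3% of the IDs, and positions from RefSeq.

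Lists were written from knowledge of the pathways, but the members and lists were chosen with earlier results of these data known. Named from each list were the called genes with the largest differences, up to 6 in the 3 lysine lists and up to 3 in the others. Of the lists, Tmlhe, Slc7a7, Haao, Gldc, Prodh, Glud1, Cbs, Gcat, Aldh1a1, Aldh3b1, Aldh3b2, Gata6 and Ttr were not analysed here. Alternatives were scaling by total count or DESeq2 1.42.0 size factors, TPM, posterior mean counts, other pseudocounts and filters, another control and, chosen after seeing the data, TMM over all genes.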

Additional observations from a re-analysis of the deposited data

How the results depend on the processing

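Aass stayed called higher in all 4 mutant lines under every alternative tried. Its log2 ratio moved beyond the counting interval with WT TT2 in place of WT J1, to 6.35 in Dnmt3a/3b DKO and to 4.57 in Dnmt1/3a/3b TKO. The call of Aass in G9a/GLP DKO over G9a CM was lost with a pseudocount of 5 CPM. No paired analysis was possible because each RNA group has 1 library.

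The small Aldh7a1 log2 ratios moved more often. With total count they were -0.06 in G9a/GLP DKO, 1.01 in Dnmt3a/3b DKO, 0.80 in Dnmt1/3a/3b TKO, 0.00 on day 2 and 0.86 in the inhibitor control over WT TT2. With TPM they were -0.01 in G9a/GLP DKO, 0.29 in G9a CM, 1.25 in Dnmt3a/3b DKO, 0.99 in Dnmt1/3a/3b TKO, 0.08 on day 2, -0.17 on day 14, 1.30 in the inhibitor control over WT TT2, then called higher, and -1.28 in WT J1 over WT TT2, then called lower. Dnmt3a/3b DKO was then called higher too. With the inhibitor control in place of WT TT2 they were -1.19 in G9a/GLP DKO, which was then called lower, and -0.82 in G9a CM. With WT TT2 as the control they were -0.07 in Dnmt3a/3b DKO, -0.28 in Dnmt1/3a/3b TKO, 0.74 on day 2, 0.86 on day 4 and 0.66 on day 14. The cause was not tested.

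Scaling by total count moved the median of all genes by 0.15, 0.18, 0.19 and 0.21 in G9a/GLP DKO, Dnmt3a/3b DKO, Dnmt1/3a/3b TKO and on day 2, and TPM by 0.16, 0.32, 0.33 and 0.22. Of all calls, 70% were higher with total count and 57.9% with TMM in G9a/GLP DKO, and likewise 63.7% against 48.3% in Dnmt3a/3b DKO, 65.5% against 50.9% in Dnmt1/3a/3b TKO, and 83.1% against 62.9% on day 2, where DESeq2 factors gave 51.5%. With TPM the share was 71.7% in Dnmt3a/3b DKO, 72.4% in Dnmt1/3a/3b TKO, 75% on day 2, 62% against 74.4% with TMM on day 4, 73.4% against 84.5% on day 14, and 28.5% against 53.3% in WT J1 over WT TT2, where total count gave 43.2%. A pseudocount of 5 CPM gave 472 higher calls, against 1370, in G9a/GLP DKO, 270 against 729 in G9a CM, 516 against 1269 in Dnmt3a/3b DKO and 642 against 1534 in Dnmt1/3a/3b TKO. With TPM the higher calls in Dnmt3a/3b DKO were 1912, and the lower calls were 754 against 1359 there and 808 against 1482 in Dnmt1/3a/3b TKO. A 5 CPM filter left 817 higher calls in G9a/GLP DKO and 478 in G9a CM. Higher calls on day 2 were 415, with 83 at a pseudocount of 5 CPM, 641 at 0.5 CPM, 241 under the 5 CPM filter, 710 with total count and 714 with TPM, and lower calls were 245, with 122 at 5 CPM and 144 with total count. Higher calls at 5 CPM were 45 against 256 on day 4 and 111 against 387 on day 14. The 31 Aass counts of WT J1 limit the precision of both ratios to it. Crym, Fah, Aldh1l2, Slc7a1 and Slc3a2 were no longer called lower in Dnmt3a/3b DKO with TPM.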
